A study of Mus musculus with 141 samples.

Results

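The 10 core circadian clock genes Arntl, Clock, Npas2, Per1, Per2, Per3, Cry1, Cry2, Nr1d1 and Nr1d2 were followed through liver, lung and kidney of Collaborative Cross (CC) mice. They were picked by symbol from 24423 genes with deposited values. CC strains are recombinant inbred lines that descend from a shared set of founder strains. The study sampled 1 male mouse from each of 47 strains and sequenced RNA from its liver, lung and kidney, with 1 library per organ and mouse. All mice were treated alike: they were 8 to 12 weeks old, lived on a 12-h light-dark cycle, spent 6 h a day in chambers with clear air on weekdays, and were anesthetized with nembutal at 100 mg/kg. No group carried a transgene, a deletion or another treatment, so that tissue and strain are the variables. With 1 mouse per strain, the genotype, the individual mouse and the hour at which its organs were taken cannot be told apart. That hour and the sequencing batch of each library are not given in the sources used here.

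The clock of a mammalian cell is a feedback loop of transcription. Arntl (also called Bmal1) pairs with Clock or its paralog Npas2 and activates genes through the E-box, among them the period genes (Per1, Per2, Per3) and the cryptochrome genes (Cry1, Cry2), whose proteins return to the nucleus and repress that pair. A second loop runs through Nr1d1 and Nr1d2 (REV-ERBα and REV-ERBβ), nuclear receptors that repress Arntl at the ROR element, and a further one through the D-box, which is bound by Dbp and its relatives. In peripheral organs such as liver, lung and kidney, each of these transcripts is known to rise and fall over the day, with Arntl and Npas2 peaking at roughly the opposite time to Per2 and Nr1d2.

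These response elements were located in the reference promoters, to show where the loop can act on its own genes. Windows of 300 bases, from 250 before to 50 after an annotated start, came from RefSeq (GRCm38.p6) for 9 of the 10 genes, 13 windows in all. Per2 had no window and was not searched. Both strands were searched for the E-box (CACGTG), the D-box (TTATGTAA) and the ROR element (AAGGTCA or TAGGTCA). None of these motifs overlaps another one in the windows below, and 9 of the 13 windows held none of them. An E-box stood in 2 windows, a D-box in 1 and a ROR element in 1, against 7.15%, 0.938% and 7.16% of all 32851 promoter windows. Among the members tested below that had a window, which leaves out Per2, no pair shared a motif in these windows. The 4 windows with a match are printed 5′ to 3′ on the strand of the gene, with the match in capitals.
Arntl (chr7:113207261-113207560, plus strand): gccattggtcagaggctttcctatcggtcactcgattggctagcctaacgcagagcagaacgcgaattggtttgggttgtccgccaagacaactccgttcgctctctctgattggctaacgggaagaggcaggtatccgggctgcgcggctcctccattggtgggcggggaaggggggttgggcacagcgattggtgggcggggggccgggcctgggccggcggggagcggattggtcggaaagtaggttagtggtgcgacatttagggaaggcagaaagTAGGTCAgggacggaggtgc
Per1 (chr11:69098699-69098998, plus strand): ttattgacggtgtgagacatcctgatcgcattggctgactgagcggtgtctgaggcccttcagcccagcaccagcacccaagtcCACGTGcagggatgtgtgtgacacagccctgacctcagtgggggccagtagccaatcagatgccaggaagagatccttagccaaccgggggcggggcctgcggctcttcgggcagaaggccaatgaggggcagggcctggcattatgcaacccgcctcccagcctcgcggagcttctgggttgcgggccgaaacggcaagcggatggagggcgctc
Per3 (chr4:151044616-151044915, minus strand): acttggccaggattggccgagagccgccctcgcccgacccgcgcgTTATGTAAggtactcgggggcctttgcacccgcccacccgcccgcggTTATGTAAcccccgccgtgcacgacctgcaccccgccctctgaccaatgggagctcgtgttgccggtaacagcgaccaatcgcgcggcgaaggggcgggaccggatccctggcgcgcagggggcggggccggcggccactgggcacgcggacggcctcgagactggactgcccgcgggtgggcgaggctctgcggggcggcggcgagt
Cry1 (chr10:85185005-85185304, minus strand): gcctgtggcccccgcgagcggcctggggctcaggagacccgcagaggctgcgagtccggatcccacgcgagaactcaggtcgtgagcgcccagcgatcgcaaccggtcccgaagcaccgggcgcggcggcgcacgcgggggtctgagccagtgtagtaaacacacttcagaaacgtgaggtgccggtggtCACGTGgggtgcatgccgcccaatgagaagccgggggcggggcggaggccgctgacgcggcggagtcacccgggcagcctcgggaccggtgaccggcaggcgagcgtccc
The ROR element of Arntl began 30 bases after its start, the E-boxes of Per1 and Cry1 began 166 and 60 bases before theirs, and the 2 D-boxes of Per3 began 205 and 158 bases before its start. Arntl has another window, shifted by part of its length, which ends before that element. A match is a stretch of letters and was not tested for binding, and an element outside these windows would not have been seen. Only the exact letters given were searched, so that other spellings of an element inside the windows were not counted either.

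Library totals ran from 1738046 to 42158454 expected counts (median, 9043226). The factors of the trimmed mean of M-values (TMM), which rescale a library for its composition, ran from 0.127 to 1.13 in liver, from 0.2503 to 2.63 in lung and from 0.346 to 1.91 in kidney. In the 47 libraries of every tissue, the summed TPM of that tissue's own 5 marker genes exceeded that of the other tissues' markers, although 1 lung marker (Cldn18) had a median count of 0 in lung. The summed TPM of 4 leukocyte markers was 1909 to 12710 in lung, 16.6 to 651 in liver and 11.8 to 366 in kidney. Fewer cells of a type and less RNA per cell cannot be told apart in such bulk tissue.

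How well each clock gene was measured depended on the gene. Genes listed with more than 1 transcript had low counts throughout the files. The median over genes of the mean count was 2.84 for 6112 such genes and 21.6 for 18311 genes with 1 transcript. Arntl and Per1 are listed with 2 transcripts, and Clock and Per3 with 3, while the other members have 1. The part of the transcript number in these low counts was not tested, and levels are therefore compared only among members with 1 transcript. Genes were tested where more than 1 CPM (counts scaled to the library total) was reached in at least 30% of the libraries, which 12127 genes and 7 of the 10 members met. Arntl passed by a narrow margin, with 57 libraries over that line.

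Clock, Per1 and Per3 did not pass and are reported as values only. Clock, the partner of Arntl, had 0 to 29 counts in liver (median, 4), 0 to 27 in lung (median, 7) and 0 to 25 in kidney (median, 4). Per3, a period gene with a weak role in timing, had 0 to 14 counts in liver (median, 2), 0 to 19 in lung (median, 5) and 0 to 10 in kidney (median, 2). Per1 was listed at 0 in 42 liver, 27 lung and 38 kidney libraries, and no library held more than 4 counts of it. A count of 0 allows up to 3 counts, which is 0.288 CPM in a liver, 0.321 CPM in a lung and 0.364 CPM in a kidney library of median depth. That limit covers counting error only. The authors quantified uniquely aligned reads, and Per1 is listed with several transcripts, as is the lung marker Cldn18 with its counts of 0, so that the values do not bound the expression of Per1. These 3 genes were not tested between tissues.

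Among the members with 1 transcript, TPM (transcript abundances scaled for length and library total) were highest for Nr1d2 and lowest for Npas2 in every tissue. Nr1d2 stood at 33.9 to 157 TPM in liver (median, 75.7), 22.1 to 256 in lung (median, 160.4) and 48.6 to 167 in kidney (median, 110.3). Its paralog Nr1d1 reached 1.87 to 58.5 TPM in liver (median, 33.3), 3.32 to 217 in lung (median, 99.0) and 1.56 to 49.9 in kidney (median, 26.2). The receptor genes thus led the list, with Nr1d2 above Nr1d1 at the median of each tissue.

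The repressors of the first loop came next. Cry2 stood at 7.01 to 46.1 TPM in liver (median, 20.8), 13.0 to 106 in lung (median, 61.1) and 9.16 to 26.8 in kidney (median, 15.4). Per2 stood at 3.91 to 41.9 TPM in liver (median, 10.5), 12.3 to 162 in lung (median, 49.1) and 5.77 to 55.2 in kidney (median, 17.5). Cry1 stood lower, at 0.87 to 35.7 TPM in liver (median, 5.50), 5.26 to 49.3 in lung (median, 14.7) and 0.67 to 14.6 in kidney (median, 3.15). The ranges of these 3 genes over mice overlapped within each tissue. Within a library, Cry1 was below Cry2 in 46 of 47 livers and below Per2 in 41, and below both in all 47 lungs and all 47 kidneys. Cry2 was above Per2 in all 47 livers and in 36 lungs, but in 15 kidneys.

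Of the activators, Npas2 was at 0 to 2.75 TPM in liver (median, 0.17), 0.70 to 7.99 in lung (median, 2.08) and 0.14 to 4.74 in kidney (median, 1.32). Its liver values rested on few reads, with 27 of 47 liver libraries at or under 3 counts. Arntl was at 0 to 4.30 TPM in liver (median, 0.51), 0.15 to 5.81 in lung (median, 1.05) and 0 to 2.72 in kidney (median, 0.55), with at most 64 counts in any library.

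**Figure D1:**
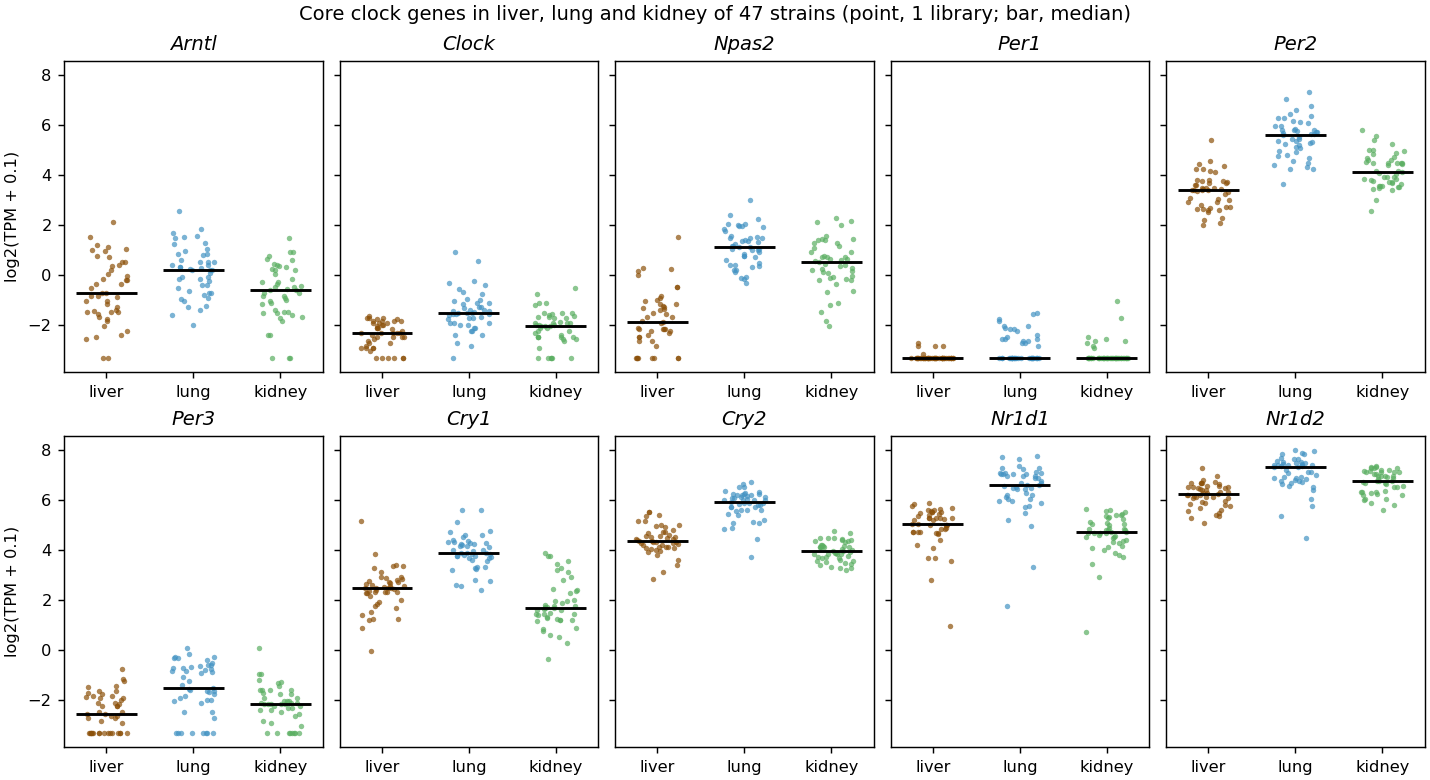
Level of each core clock gene, as log2(TPM + 0.1), in the 47 libraries of each tissue (1 point per library, bar at the median). Per1 lies at the bottom in nearly all libraries, single libraries fall far below the rest for Nr1d1, and the lung median is the highest of the 3 tissues for every gene but Per1.

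The first question was which clock genes differ between organs once library composition is accounted for. It was tested with limma-voom on TMM-scaled counts across all 12127 genes, with strain as a block, and a gene was called where the Benjamini-Hochberg adjusted p was no more than 0.1 and the log2 fold change reached 1 in either direction. With TMM scaling, Cry1, Cry2 and Nr1d1 were lower in kidney than in liver and lung by more than 1 log2 unit and did not pass between liver and lung. Without TMM their difference between liver and kidney lost its call, whereas that between lung and kidney kept it. The 3 comparisons share libraries, so that their results are given side by side and not as independent evidence.

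Of the 7 members tested, 1 was called between liver and lung, 5 between liver and kidney and 3 between lung and kidney. Of all tested genes, 54.9%, 36.6% and 46.3% were called in these comparisons, so that a call is common for any gene in this design. The single call between liver and lung and 1 of the 5 between liver and kidney were Npas2, whose values were in part fixed by the filter, as given below. CPM from here on are TMM-scaled, unlike those of the filter and of the limit for counts of 0. On this scale Cry2, a repressor of the Arntl pair, was at 37.8 to 87.9 in liver (median, 51.5). It was at 34.9 to 82.7 in lung (median, 52.3) and 13.2 to 35.1 in kidney (median, 20.2). Every strain had more Cry2 in liver than in kidney and more in lung than in kidney on this scale. The liver and kidney ranges did not overlap there, and how many of all genes share this was not counted. On TPM as deposited these ranges overlapped, with Cry2 higher in liver in 33 strains and in kidney in 14. The log2 fold change of Cry2 was 1.36 ± 0.06 (SE) for liver over kidney (limma-voom adjusted p = 9.913e-43) and 1.30 ± 0.06 for lung over kidney (limma-voom adjusted p = 2.001e-41). Between liver and lung it was 0.05 ± 0.06 (limma-voom adjusted p = 0.343).

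Cry1, the paralog of Cry2, showed the same order with a wider spread. It was at 9.87 CPM in liver, 10.1 in lung and 2.93 in kidney at the median. It was higher in liver than in kidney in 45 of 47 strains and higher in lung than in kidney in 46. The log2 fold changes were 1.33 ± 0.11 (limma-voom adjusted p = 8.909e-21) and 1.40 ± 0.11 (limma-voom adjusted p = 3.978e-22).

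Nr1d1, a repressor of Arntl, also fell into this pattern. Its median was 59.9 CPM in liver, 62.5 in lung and 24.3 in kidney. It was higher in liver than in kidney in 46 strains and higher in lung than in kidney in 44 strains. The log2 fold changes were 1.19 ± 0.09 (limma-voom adjusted p = 1.289e-24) and 1.26 ± 0.09 (limma-voom adjusted p = 3.23e-26). Its paralog Nr1d2 did not share it. Nr1d2 was at 217 CPM in liver, 153 in lung and 170 in kidney at the median, and its log2 fold changes were 0.58 ± 0.05 for liver over lung, 0.36 ± 0.05 for liver over kidney and -0.21 ± 0.05 for lung over kidney. These passed the adjusted p but not the fold-change threshold.

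Npas2, the activator that can stand in for Clock, was at 0.395 CPM in liver, 1.86 in lung and 1.84 in kidney at the median. Lung exceeded liver in 43 of 47 strains, and kidney exceeded liver in 41 strains. The 1 CPM line of the filter, drawn without TMM, was exceeded in 6 liver, 44 lung and 37 kidney libraries. Npas2 thus entered the fit through lung and kidney, and its difference from liver is a description. The log2 fold changes were -1.64 ± 0.20 for liver over lung and -1.59 ± 0.20 for liver over kidney. Lung and kidney differed by 0.05 ± 0.20 (limma-voom adjusted p = 0.811).

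Arntl had log2 fold changes of 0.74 ± 0.17 for liver over lung and 0.35 ± 0.17 for lung over kidney. For liver over kidney it was 1.09 ± 0.17 (limma-voom adjusted p = 1.575e-08), a call that was lost with edgeR's quasi-likelihood test (0.999), DESeq2's Wald test (0.979) and without the replicate block (0.867). On scales without TMM it nearly vanished, at 0.08 with log2(TPM + 0.1), 0.07 with log2(TPM + 1) and 0.08 with total counts. Per2, a repressor of the Arntl pair, was at 38.8 CPM in liver, 64.3 in lung and 39.4 in kidney at the median. It was higher in lung than in kidney in all 47 strains, by 0.76 ± 0.08 on the log2 scale (limma-voom adjusted p = 1.326e-16), and higher in lung than in liver in 41 strains, by a log2 fold change of -0.73 ± 0.08 for liver over lung (limma-voom adjusted p = 1.33e-15). Both stayed under the fold-change threshold.

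The scale decides the direction of some of these differences. On log2(TPM + 0.1) values without TMM, the median of all tested genes shifted by -1.52 between liver and lung, by -0.94 between liver and kidney and by 0.56 between lung and kidney. On that scale the signs of Arntl, Cry2 and Nr1d2 in liver against lung, Per2 and Nr1d2 in liver against kidney and Nr1d2 in lung against kidney were opposite to those above. Cry1, Cry2 and Nr1d1 in liver over kidney were 0.56, 0.47 and 0.29 and were no longer called. In liver over lung they were -1.52, -1.40 and -1.53 and were called, with higher TPM in lung in 44, 44 and 45 of 47 strains. In lung over kidney they stayed called, at 2.08, 1.86 and 1.82. Relative to the median of all genes, Cry2 in liver over kidney was 1.43 on the TMM scale and 1.41 on the TPM scale, Nr1d1 1.27 and 1.23, and Npas2 -1.51 and -1.27. With a pseudocount of 1, which weighs on a gene as scarce as Npas2, its value was -0.19.

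**Figure D2:**
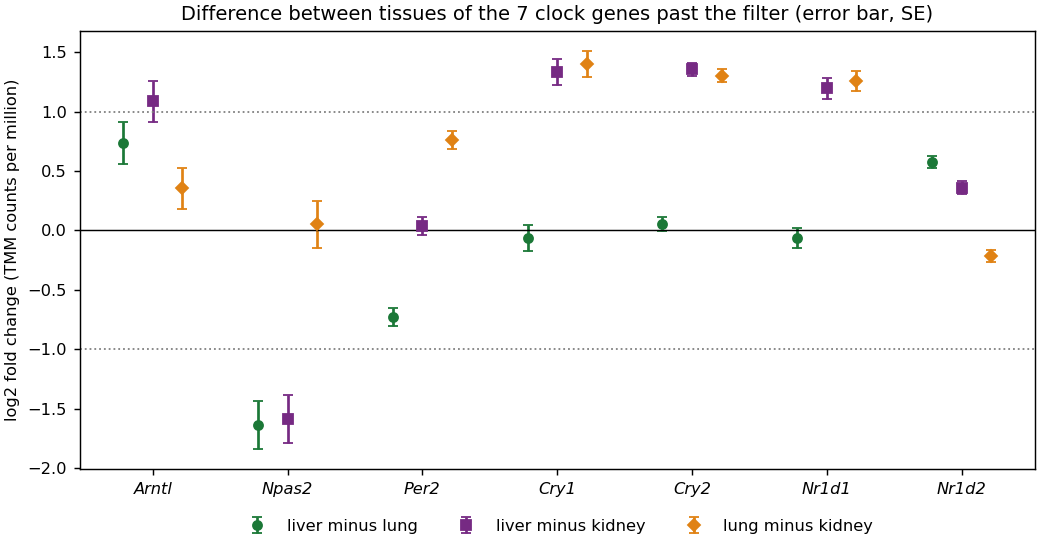
Log2 fold change of the 7 tested clock genes between each pair of tissues (y axis, TMM-scaled CPM, with SE as error bars and dotted lines at the fold-change threshold of 1). Cry1, Cry2 and Nr1d1 lie above 1 in both comparisons with kidney and near 0 between liver and lung, and Npas2, which passed the filter through lung and kidney, lies below -1 in both comparisons with liver.

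Other genes of the pathway were read from 6 lists with 30 genes, of which 22 were tested. Between liver and lung 6 were called higher in liver and 1 in lung. Between liver and kidney 2 were higher in liver and 1 in kidney, and between lung and kidney 1 was higher in lung and 5 in kidney. The share of all tested genes called was 54.9%, 36.6% and 46.3% in these comparisons. The median log2 fold changes over these 22 genes were 0.48, -0.01 and -0.25, beside -0.07, -0.07 and -0.02 over all tested genes. The genes named here are called genes with the largest change in their list.

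Nfil3, a repressor at the D-box, was higher in liver than in lung by 2.10 ± 0.11 and than in kidney by 2.21 ± 0.11 on the log2 scale. Hlf, an activator at the D-box, was lower in lung than in kidney by a log2 fold change of -1.81 ± 0.08. Bhlhe40 (DEC1), a repressor at the E-box, was higher in liver than in lung by 2.07 ± 0.08 and than in kidney by 1.39 ± 0.08. Csnk1e, a kinase of the period proteins that is listed with 3 transcripts, had a log2 fold change of -2.21 ± 0.08 for liver over lung and 1.95 ± 0.08 for lung over kidney. Nampt, an enzyme of NAD synthesis, was lower in lung than in kidney by a log2 fold change of -1.59 ± 0.08. Fbxl21, which marks cryptochromes for degradation, was higher in liver than in lung by 2.15 ± 0.11 and lower in lung than in kidney by a log2 fold change of -2.05 ± 0.11. Usp2, a deubiquitinase, was lower in lung than in kidney by a log2 fold change of -2.93 ± 0.30 and in liver than in kidney by -1.57 ± 0.30, with medians of 4 counts in liver and lung and 20 in kidney. With so few counts in liver and lung, its differences from kidney are a description, like those of Npas2 from liver.

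How much the mice differed from each other also depended on the gene. The SD over strains of log2 CPM for Nr1d1 amounted to 0.871, 0.815 and 0.849 in the order liver, lung and kidney, against medians of 0.525, 0.377 and 0.412 over all tested genes. Nr1d2 and Cry2 had SDs of 0.231 to 0.347 and 0.275 to 0.321, below these medians. On log2(TPM + 0.1) without TMM their SDs were higher, at 0.467 to 0.677 and 0.392 to 0.584, and Nr1d2 in lung (0.677) was then above the median of all genes (0.655). Per2 lay between them, at 0.642 to 0.721. Cry1 had SDs of 0.645 in liver, 0.525 in lung and 0.912 in kidney. For Arntl (0.787 to 1.40) and Npas2 (0.671 to 1.56) the spread includes the counting error of few reads.

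Single mice held the extremes in several organs. The correlations below use TMM-normalized TPM, computed within each tissue, and values of single mice are given on that scale. The CC015 mouse had the lowest Nr1d1 of all strains in liver, lung and kidney, at 1.75, 13.1 and 1.997 against medians of 35.8, 101.5 and 25.6. It also had the highest Cry1 in liver and kidney, at 33.5 and 15.2 against medians of 5.17 and 2.88, and the highest Npas2 in kidney, at 6.07 against a median of 1.28, whereas its liver library held no Npas2 read. On TPM as deposited, its kidney Cry1 (11.9) was below that of CC068 (14.62). Dbp, a D-box activator under direct control of the Arntl pair, was lowest in the CC015 mouse in all 3 organs. It was at 3.79, 3.27 and 4.51 against medians of 40.7, 51.0 and 44.7.

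The CC053 mouse showed a different set of extremes. Its Arntl was the highest of all strains in liver and lung, at 3.83 and 4.07 against medians of 0.553 and 0.926, as was its Npas2, at 2.45 and 5.60 against medians of 0.154 and 1.998. Its Per2 was the lowest in lung and kidney, at 13.2 and 5.76 against medians of 48.1 and 19.7, and its Nr1d2 was the lowest in liver. On TPM as deposited these 3 extremes did not hold. Per2 was then lower in CC032 in lung (12.3 against 18.85) and in CC011 in kidney (5.77 against 7.98). Nr1d2 in liver was lower in CC033 (33.92 against 39.24). At the other end, the highest 3 Per2 values came from CC021, CC061 and CC068 in lung and from the same mice in kidney, in another order. On TPM as deposited this held in kidney but not in lung. CC068 (83.61) was there below CC012 (108.8), CC006 (97.37) and CC042 (86.29). CC068 also had the highest Per2 in liver.

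The second question was whether a clock gene varied together over strains in 2 organs of the same mice. Pearson's r of rank inverse normal values was used with a two-sided permutation test (100000 resamples), adjusted over all tested genes of a tissue pair. All 7 tested members were called between lung and kidney, where 15.8% of all tested genes were called and the median r of all genes was 0.140. Per2 had r = 0.823 (rho = 0.773), which only 13 of 12126 genes exceeded (permutation adjusted p = 0.000718). Cry1 followed with r = 0.645 (rho = 0.630), Nr1d1 with 0.527 (rho = 0.493), Npas2 with 0.516 (rho = 0.534), Nr1d2 with 0.445 (rho = 0.438), Arntl with 0.441 (rho = 0.455) and Cry2 with 0.380 (rho = 0.378). Their permutation adjusted p-values lay between 0.000718 for Cry1 and 0.066 for Cry2.

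In the pairs with liver fewer members were called. Between liver and kidney, where 18.2% of all tested genes were called, 4 of the 7 were called. These were Per2 (r = 0.623, rho = 0.550, permutation adjusted p = 0.000689), Nr1d1 (r = 0.612, rho = 0.558, permutation adjusted p = 0.00118), Cry1 (r = 0.428, rho = 0.352, permutation adjusted p = 0.0259) and Arntl (r = 0.398, rho = 0.445, permutation adjusted p = 0.0467). Without the CC015 and CC053 mice the Arntl value was 0.350 and no longer passed. Npas2, Cry2 and Nr1d2 had r of 0.069, 0.103 and 0.086 and did not pass.

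Between liver and lung, where 10.7% of all tested genes were called, 3 members were called. They were Arntl (r = 0.637, rho = 0.631, permutation adjusted p = 0.00108), Per2 (r = 0.541, rho = 0.476, permutation adjusted p = 0.00531) and Nr1d1 (r = 0.457, rho = 0.390, permutation adjusted p = 0.0235). Nr1d2 (0.308), Cry1 (0.284), Cry2 (0.135) and Npas2 (0.125) did not pass. Whether r differs between tissue pairs was not tested. Without the 2 strains farthest from the median the called values stayed positive, between 0.295 and 0.794 over the 3 pairs, and the lowest was Cry1 in liver and kidney. With TPM as deposited, the calls kept were Arntl between liver and lung (0.526), Per2 (0.496), Nr1d1 (0.674) and Arntl (0.419) between liver and kidney, and Per2 (0.673) and Npas2 (0.418) between lung and kidney. The calls lost were Per2 (0.355) and Nr1d1 (0.438) between liver and lung, Cry1 (0.261) between liver and kidney, and Cry1 (0.309), Nr1d1 (0.416), Arntl (0.342), Nr1d2 (0.158) and Cry2 (0.116) between lung and kidney.

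Of the 22 other pathway genes, 5 were called between liver and lung, 3 between liver and kidney and 4 between lung and kidney. The share of all tested genes called was 10.7%, 18.2% and 15.8% in these pairs. Among the pathway genes, Dbp was called between liver and lung (r = 0.451) and between lung and kidney (0.541). Wee1, a cell cycle kinase gene under clock control, was called in all 3 pairs (0.405, 0.428 and 0.607). Of the 17 tested marker genes of liver, lung, kidney and leukocytes, 1 was called between liver and lung, 2 between liver and kidney and 0 between lung and kidney, where 1 had an unadjusted permutation p under 0.05. Markers of 1 organ could be far scarcer in another, which limits what their r can show. For lung over kidney the log2 fold change was 9.83 for Sftpc and -10.39 for Slc34a1. Umod had equal CPM in liver and lung in 26 of 47 strains. These marker counts are therefore a description. Of 4 genes that glucocorticoids induce, 3 (Zbtb16, Fkbp5 and Tsc22d3) were called in every pair, and the median r of the 4 was 0.665 between liver and lung, 0.461 between liver and kidney and 0.615 between lung and kidney, beside 0.308, 0.398 and 0.516 for the members. The r of Zbtb16 was 0.724, 0.767 and 0.884.

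**Figure D3:**
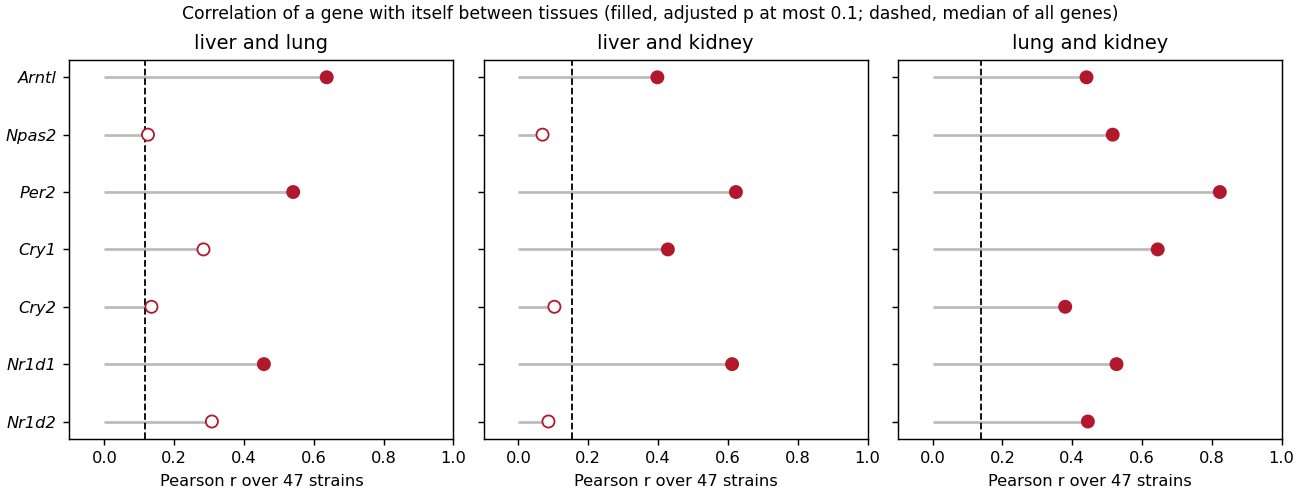
Pearson r of each tested clock gene with itself between 2 tissues over 47 strains (x axis), for the 3 tissue pairs, with filled points for adjusted p of at most 0.1 and a dashed line at the median r of all tested genes. All 7 points are filled for lung and kidney, and Npas2, Cry2 and Nr1d2 lie near the dashed line or below it for liver and kidney.

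The third question was how the members varied with each other within an organ, where each member was correlated with all tested genes. For the 21 pairs of tested members, 6 were called in liver, 7 in lung and 9 in kidney, where 1.6%, 2.46% and 1.13% of all pairs of a member with a tested gene were called. Arntl and Npas2 stood on one side and Per2 and Nr1d2 on the other, in that all called correlations across these 2 sides were negative and all called correlations within a side were positive. The first component over the 7 members carried 44.6%, 46.9% and 39.8% of the variance in liver, lung and kidney. In it, Arntl and Npas2 had negative loadings and Per2, Cry2 and Nr1d2 positive loadings in each tissue. Nr1d1 had negative loadings nearer to 0 (-0.17, -0.08 and -0.09), and Cry1 had 0.01, 0.43 and 0.34.

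The correlation farthest from 0 in liver was that of Arntl with Per2, at r = -0.790 (rho = -0.826, permutation adjusted p = 0.0107). In lung it was -0.435 (rho = -0.452, permutation adjusted p = 0.094), and in kidney -0.279 (permutation adjusted p = 0.409). The liver value differed from that of lung by -0.355 and from that of kidney by -0.511, in a permutation test that swapped tissue labels within strains and was added after the correlations had been seen (adjusted p = 0.0353 and 0.00693 over 63 tests). The lung call was lost given depth (-0.409) and given the TMM factors (-0.402).

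Nr1d2 was negatively correlated with both activators, apart from Arntl in lung, which did not pass. With Arntl it had r = -0.624 in liver (permutation adjusted p = 0.0107), -0.368 in lung (permutation adjusted p = 0.181) and -0.495 in kidney (permutation adjusted p = 0.0569). With Npas2 it had r = -0.676, -0.500 and -0.603 in liver, lung and kidney (permutation adjusted p = 0.0107, 0.0366 and 0.0293). Npas2 and Nr1d2 were thus negatively correlated in each organ. In liver this rests on an Npas2 with a median of 2 counts.

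Npas2 had r = -0.481 with Per2 in liver and -0.598 in kidney (permutation adjusted p = 0.0596 and 0.0386), and -0.505 with Cry2 in liver (permutation adjusted p = 0.042). The 2 activators were positively correlated in lung (r = 0.550, permutation adjusted p = 0.021) and in kidney (r = 0.498, permutation adjusted p = 0.0646), while liver had r = 0.369 (permutation adjusted p = 0.222). In kidney that call was lost without the CC015 and CC053 mice (0.452) and on log2 values without the rank transformation (0.417).

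Per2 and the cryptochromes were tied in lung and kidney. Per2 with Cry1 had r = 0.816 in lung (rho = 0.805, permutation adjusted p = 0.011) and 0.581 in kidney (rho = 0.587, permutation adjusted p = 0.0407). In liver it was -0.026 (permutation adjusted p = 0.968). The differences of -0.843 between liver and lung and of -0.608 between liver and kidney passed the test of label swaps (permutation adjusted p = 0.00063 and 0.0357), whereas the difference of 0.235 between lung and kidney did not (permutation adjusted p = 0.121). Per2 with Cry2 had r = 0.427 in liver, 0.630 in lung and 0.659 in kidney (permutation adjusted p = 0.126, 0.011 and 0.0293). Cry1 and Cry2 were correlated in kidney (r = 0.541, permutation adjusted p = 0.044), which was lost without CC032 and CC042 (0.454).

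Nr1d1 and Nr1d2, the REV-ERB genes, had r of -0.114, 0.055 and 0.103 in liver, lung and kidney (permutation adjusted p = 0.824, 0.925 and 0.832). Per2 had r = 0.659 with Nr1d2 in liver, 0.451 in lung and 0.210 in kidney (permutation adjusted p = 0.0107, 0.0807 and 0.578), and the lung call was lost given depth (0.419). With Nr1d1 it had -0.194, -0.312 and -0.167, none called, and the difference between the REV-ERB genes was not tested. Nr1d1 was negatively correlated with Cry1 in lung (r = -0.536) and kidney (-0.628), while liver (-0.334) did not pass (permutation adjusted p = 0.0263, 0.0293 and 0.294), and with Arntl in kidney (r = -0.500, permutation adjusted p = 0.0601). The last of these was lost without the CC015 and CC053 mice (-0.455) and given the TMM factors (-0.463), while Cry1 with Nr1d1 passed without these mice in lung (-0.523) and kidney (-0.614).

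These correlations depend on the TMM step. With TPM as deposited, 37208 of 84833 pairs in liver, 70502 of 84861 in lung and 32331 of 84854 in kidney were called, nearly all positive. In that setting Arntl with Per2 in liver (-0.500) and Per2 with Cry1 in lung (0.829) and kidney (0.593) still passed. Arntl with Nr1d2 (-0.095) and Npas2 with Cry2 (-0.220) in liver, Arntl with Per2 (-0.062) and Cry1 with Nr1d1 (-0.012) in lung, and Npas2 with Nr1d2 (-0.123) and Arntl with Nr1d1 (-0.293) in kidney did not. Npas2 with Nr1d2 in lung (0.115) and Arntl with Nr1d2 in kidney (0.083) changed sign.

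**Figure D4:**
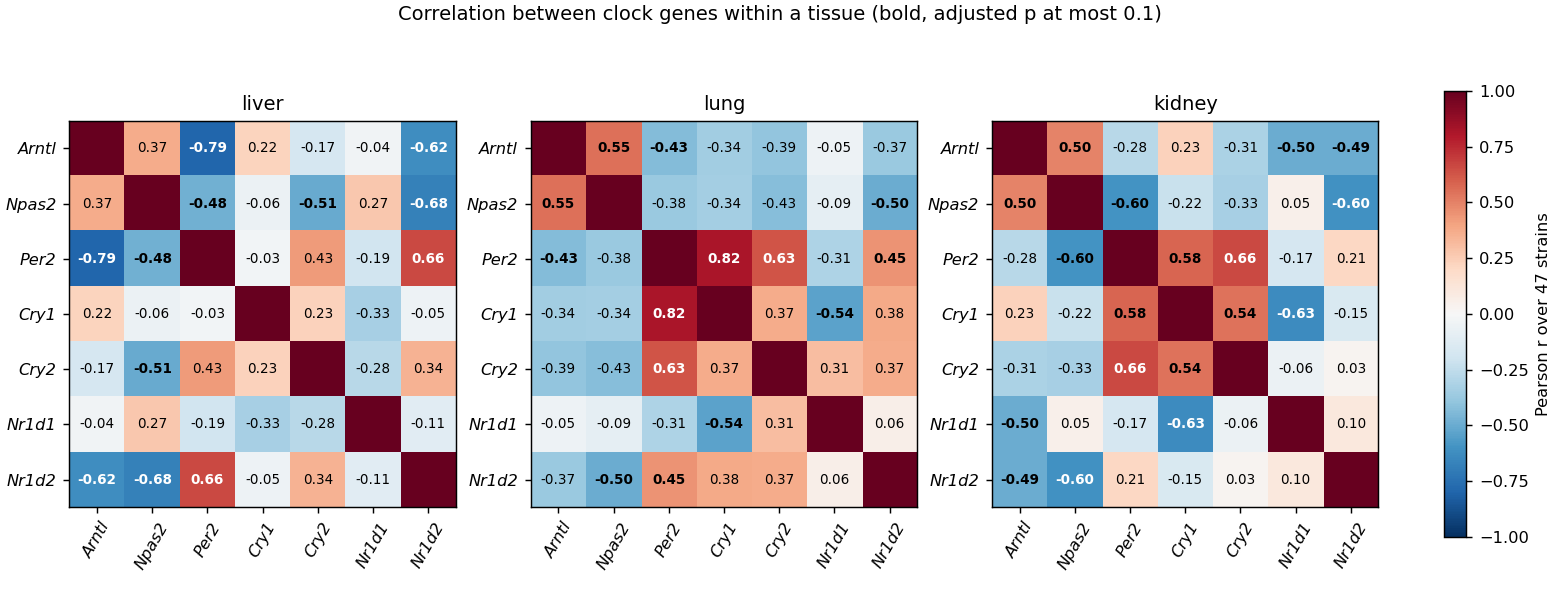
Pearson r between the 7 tested clock genes over 47 strains in liver, lung and kidney (color from -1 to 1, value in each cell, bold for adjusted p of at most 0.1). The cell of Per2 and Cry1 changes from -0.03 in liver to 0.82 in lung, and that of Arntl and Per2 from -0.79 in liver to -0.28 in kidney.

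**Figure D5:**
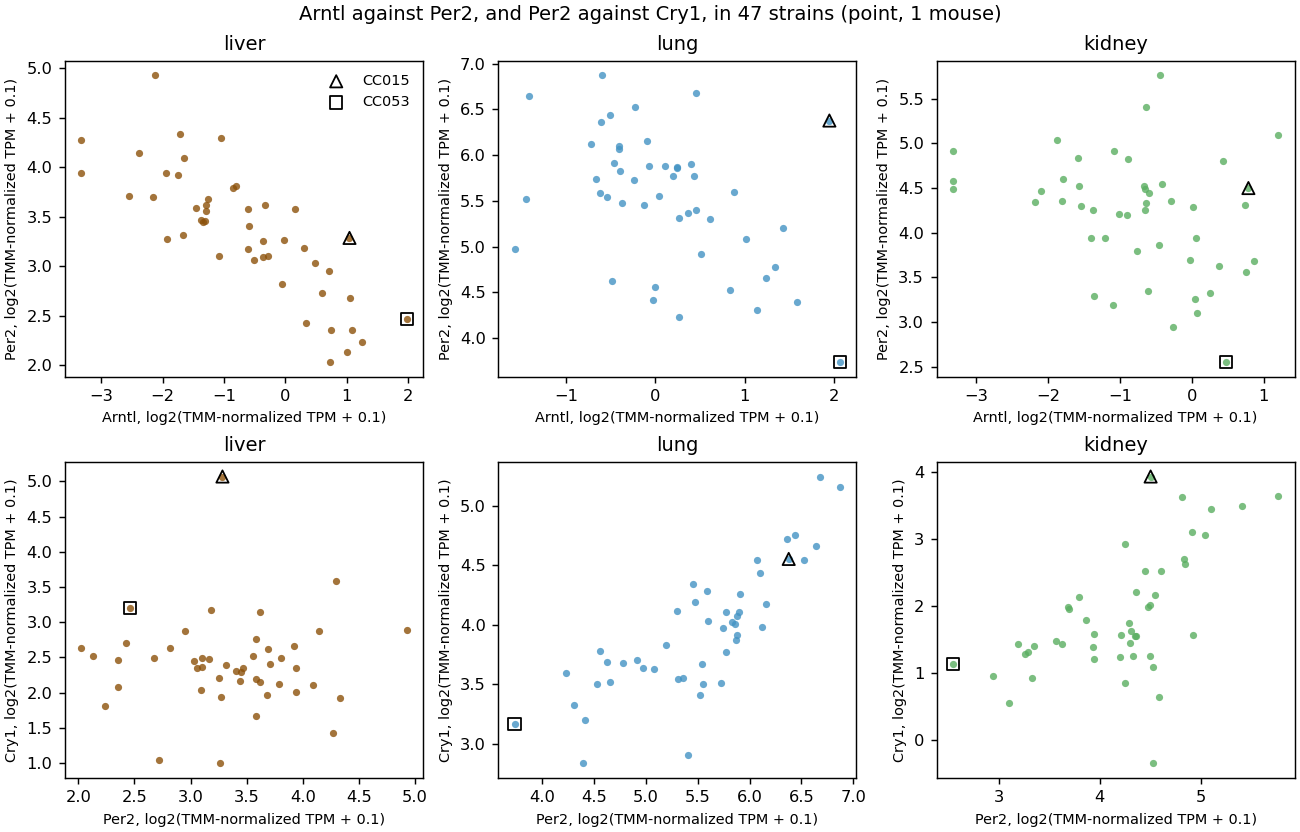
Arntl against Per2 (upper row) and Per2 against Cry1 (lower row) in the 3 tissues, as log2(TMM-normalized TPM + 0.1), with 1 point per mouse and the CC015 and CC053 mice outlined. The points of Arntl and Per2 fall along a descending band in liver, and those of Per2 and Cry1 along a rising band in lung.

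Among the 22 other pathway genes, 20 of 154 pairs with a member were called in liver, 26 in lung and 17 in kidney (13%, 16.9% and 11%). Arntl and Npas2 were negatively correlated with each pathway gene with which they were called, while Per2 and Nr1d2 were positively correlated with theirs, although Nr1d2 had none in kidney. Per2 was called with Wee1 in each tissue (r = 0.717, 0.775 and 0.783 in liver, lung and kidney). Ciart (CHRONO), a repressor of the Arntl pair, was correlated with Nr1d2 in liver and lung (0.645 and 0.545), and with Arntl in liver and kidney (-0.613 and -0.537). Dbp was correlated with Nr1d1 in lung and kidney (0.572 and 0.629), and with Arntl in liver and kidney (-0.686 and -0.640).

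Of the 28 pairs of a member with a gene that glucocorticoids induce, 6 were called in lung and 4 in kidney, all positive, and 1 in liver, which was Nr1d1 with Fkbp5 (-0.476). Per2 held 3 of those in lung and 2 in kidney, and the others were Cry1 with Fkbp5 (0.577) and Zbtb16 (0.511) and Cry2 with Zbtb16 (0.518) in lung, and Cry1 (0.471) and Cry2 (0.483) with Tsc22d3 in kidney. Per2, which glucocorticoids are known to induce as well, had r = 0.791 with Zbtb16, 0.674 with Tsc22d3 and 0.655 with Fkbp5 in lung, and 0.810 with Tsc22d3 and 0.515 with Zbtb16 in kidney. With Fkbp5 in kidney it had 0.324, and the fourth gene, Sgk1, had -0.141 in lung and 0.249 in kidney, none of which passed. In liver the 4 values with Per2 ran from -0.007 to 0.383 and none was called. None of 28 pairs of a member with 1 of 4 immediate-early genes was called by the permutation test in any tissue, and the unadjusted p was under 0.05 for 5 pairs in liver, 3 in kidney and 0 in lung. Of 119 pairs with a tissue or leukocyte marker in each tissue, 1 was called, Cry1 with Sftpa1 in lung (0.497), and 11, 14 and 12 had an unadjusted permutation p under 0.05 in liver, lung and kidney. Markers of another organ could be scarce in the tissue, as given above, which limits these values too. The part of glucocorticoids or of cell composition in the correlations was not tested.

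The non-member genes most like each member were ranked by the mean of r over the 3 tissues, as a description over 47 strains. Wee1 was the most like Per2 (mean r = 0.758), followed by Stk35 (0.646). Ypel2 (0.581) and Dtx4 (0.533) were the most like Arntl, and Dtx4 was also the most like Npas2 (0.564), followed by Leo1 (0.476). Dtx4 was at the same time the least like Per2 (-0.624) and Nr1d2 (-0.546), and Dbp was the least like Arntl (-0.579). Nr1d2 was followed most closely by Fnip1 (0.572) and Atxn3 (0.564).

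For Cry1, Lonrf3 was among the closest genes (0.516), and the farthest was St6galnac3 (-0.492). For Cry2 the closest were Mknk2 (0.547) and Herpud1 (0.532), with Cul2 the farthest (-0.504), and Herpud1 was also the farthest from Npas2 (-0.541). Nr1d1 was most like Thra (0.647) and Myrf (0.610), and least like Cct3 (-0.554). Nr1d1 (chromosome 11, 98629246 to 98636647, minus strand, NCBIM37, GENCODE vM1) and Thra (98601952 to 98630320, plus strand) overlap, and 263 exonic bases are shared on opposite strands. Whether reads were assigned by strand is not given in the sources used here, and without it reads of these bases cannot be told apart, so that the likeness of Nr1d1 and Thra is uncertain. Cry2 likewise shares 295 exonic bases with the opposite-strand lincRNA D930015M05Rik.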

How the data were processed

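The authors filtered single-end reads, aligned them with STAR 2.5.3a and RSEM to strain pseudo-genomes (Build37, mm9) and pseudo-transcriptomes built on C57BL/6J RefSeq, quantified the uniquely aligned reads, and deposited expected counts and TPM (transcript abundances scaled for length and library total) per gene and library. The deposited FPKM were not used. Of the expected counts, 25 were not whole, and all were rounded. Per-library totals ran from 1738046 to 42158454, which limits the precision of scarce genes (floor, 3 counts). The tissue fit used limma 3.58.1 (voom) with TMM factors from edgeR 4.0.16 (R 4.3.3) and strain as the replicate block, since the 3 tissues of a strain come from the same mouse. Batch, used by the study, is not in the labels and was left out. Correlations over 47 strains used TMM-normalized TPM after a rank inverse normal transformation, with permutation tests of 100000 resamples (smallest p, 1e-05) in Python 3.11.15. Calls needed an adjusted p of at most 0.1, and in the tissue fit also a log2 fold change of 1 or more in either direction. The tissue fit, the correlations and the test of differences between tissues were each tried on simulated data. The other steps were not. The members, gene lists and tests were chosen with earlier results of these data known. Named besides the members are, per pathway list, the called gene with the largest change, list genes that stand beside a member, and per member the 2 most alike and the least alike gene. A gene that this rule names is not reported here. Alternatives covered scaling, test, filter, threshold, pseudocount, block, depth and left-out strains, of which CC015 and CC053 and the TMM factors were chosen after seeing the data, as was the test of differences between tissues. P-values of the correlations measure the spread between strains, each represented by 1 mouse. Those of the tissue fit rest on how the difference between tissues varied over the mice, with strain as the block. Those of the differences in r rest on swaps of tissue labels within strains.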

Additional observations from a re-analysis of the deposited data

Results flagged for a closer look

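The correlation of a pair of clock genes differed between 2 tissues in 10 of 63 tests (permutation of tissue labels within the 47 strains, adjusted over the 63 tests). The test was chosen after the correlations had been seen, and the tests share libraries. Between liver and lung the difference in r (liver minus lung) was -0.843 for Per2 with Cry1 (adjusted p = 0.00063 by permutation), -0.355 for Arntl with Per2 (0.0353), 0.567 for Arntl with Cry1 (0.0372) and -0.591 for Cry2 with Nr1d1 (0.0463). Between liver and kidney (liver minus kidney) it was -0.511 for Arntl with Per2 (0.00693), -0.608 for Per2 with Cry1 (0.0357), 0.465 for Arntl with Nr1d1 (0.0372) and 0.449 for Per2 with Nr1d2 (0.0463). Between lung and kidney (lung minus kidney) it was 0.524 for Cry1 with Nr1d2 (0.00693) and -0.578 for Arntl with Cry1 (0.0335). Arntl with Cry1, Cry2 with Nr1d1 and Cry1 with Nr1d2 were not called in any single tissue. Of these 10 differences, 8 did not pass with TPM as deposited, and those of Per2 with Cry1 and of Arntl with Per2 between liver and lung did.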

How the results depend on the processing

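Strain was the replicate block of the tissue fit, and without the replicate block 1, 4 and 3 members were called in liver against lung, liver against kidney and lung against kidney, the change being Arntl (0.867). The largest changes came from leaving out TMM. Between liver and lung, 5 members were called with log2(TPM + 0.1), log2(TPM + 1) and total counts, and 4 with the adjusted p alone. Between liver and kidney these 3 scales gave 1, 0 and 1, and between lung and kidney the adjusted p alone gave 6. In the order of these scales, log2 fold changes changed sign to -0.79, -0.33 and -0.72 for Arntl, -1.40, -1.36 and -1.28 for Cry2 and -0.88, -0.87 and -0.77 for Nr1d2 in liver against lung, to -0.85, -0.79 and -0.83 for Per2 and -0.52, -0.52 and -0.50 for Nr1d2 in liver against kidney, and to 0.36, 0.36 and 0.27 for Nr1d2 in lung against kidney. Cry2 in liver against lung was -0.18 with DESeq2 size factors and -0.16 with DESeq2's Wald test, and Per2 in liver against kidney was -0.008 without CC032 and CC042. With TPM as deposited, 1 member was called across liver and lung and 2 across lung and kidney, 12 member pairs in liver and 13 in lung, and 4 differences between tissues. There the sign changed for Cry2 (-0.007) and Nr1d2 (-0.082) across liver and lung, in liver for Arntl with Nr1d1 (0.092), Per2 with Cry1 (0.301) and Nr1d1 with Nr1d2 (0.146), in lung for Arntl with Nr1d1 (0.428), Arntl with Nr1d2 (0.327), Npas2 with Cry2 (0.164) and Npas2 with Nr1d2 (0.115), and in kidney for Arntl with Nr1d2 (0.083). The expression filter of the eQTL mapping left 2 pairs called in liver, since Arntl and Npas2 did not meet it there. Values near 0 also changed sign. Without the 2 farthest strains these were Npas2 across liver and lung (-0.023) and liver and kidney (-0.008), Cry2 across liver and kidney (-0.005) and Arntl with Nr1d1 in lung (0.044). Arntl with Nr1d1 was 0.059 in liver given the TMM factors and in lung 0.050 by Spearman's rho and 0.044 without CC015 and CC053. Per2 with Cry1 in liver was 0.016 on log2 values, 0.036 without CC015 and CC053 and 0.006 given the TMM factors. Nr1d1 with Nr1d2 in lung was -0.00012 by Spearman's rho and -0.062 without CC015 and CC053. Per2 with Nr1d2 in lung lost its call given depth (0.419), and Arntl with Nr1d2 in kidney by Spearman's rho (-0.461). The causes were not tested. Few counts limit the precision of Clock, Per1 and Per3, of Npas2 in liver (27 of 47 libraries at 3 counts or fewer) and of Arntl in liver and kidney (18 each).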
